A study of Homo sapiens with 7 samples.

Results

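The 3 trefoil factor genes, TFF1, TFF2 and TFF3, lie in tandem on the long arm of human chromosome 21 (21q). Histone peaks over them were examined in T-47D, an established luminal, estrogen receptor-positive breast cancer cell line. The region was taken by position, as all peaks that touch a 150 kb window of chromosome 21 in hg19, from 43700000 to 43850000. It held 23 of the 286998 peaks in all 6 lists. All 3 genes are on the minus strand, so the start of each gene is its highest coordinate and upstream means higher coordinates. From low to high coordinates the order is TFF3 (43731777 to 43735761), TFF2 (43766467 to 43771208) and TFF1 (43782391 to 43786644).

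The study mapped a histone variant and 5 histone modifications by chromatin immunoprecipitation followed by sequencing (ChIP-seq), to relate them to gene regulation in these cells. The cells were grown in serum-containing DMEM, and the labels give 1 condition, with no treatment, genotype or time point. Each of H2A.Z, H3K27ac, H3K27me3, H3K36me3, H3K4me2 and H3K9me3 had 1 library and 1 deposited peak list. A 7th sample, the input, was not analysed here. There were no replicates, so no value below has a replicate error or a p-value, and each comparison describes these libraries.

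Trefoil factors are small secreted peptides of mucous epithelia that protect and repair the surface. TFF1, first described as pS2, is a classic estrogen-induced gene of breast cancer cells. TFF3 is made by intestinal goblet cells and by many estrogen receptor-positive breast tumours. TFF2, the spasmolytic polypeptide, is made mainly in the stomach and carries a pair of trefoil domains. As background on the marks, H3K4me2 lies on promoters and enhancers, H3K27ac on active ones, H3K36me3 on transcribed gene bodies and H3K27me3 on Polycomb-repressed regions. H2A.Z is a variant known from promoters and enhancers, and H3K9me3 is typical of heterochromatin.

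On 21q, 2 lists went against the background of their labels. Of 556 labelled H2A.Z peaks on 21q, 0 overlapped H3K4me2, whereas 103 of 227 labelled H3K9me3 peaks (45.4%) did. Both are therefore named by their labels, and nothing below rests on what the labels stand for. Whether these labels or files were exchanged was not tested, so which mark the labelled H3K9me3 peak at TFF3 represents is uncertain. The lists give a position for each peak and no height. Read depth is unknown, no correction for DNA copy number was made here, and signal too weak to be called leaves no trace in a list. The commonest peak width was 501 bp in every list.

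H3K4me2 dominated the window. It contributed 14 of the 23 peaks, H3K27ac 4, H3K27me3 2, the list labelled H3K9me3 2, H3K36me3 1 and the list labelled H2A.Z 0. The 3 genes differed from each other. TFF1 had 2 wide H3K4me2 peaks and no other mark. TFF3 had a labelled H3K9me3 peak over its start, with H3K4me2 and H3K27ac inside the gene. TFF2 had no peak of any list.

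**Figure D1:**
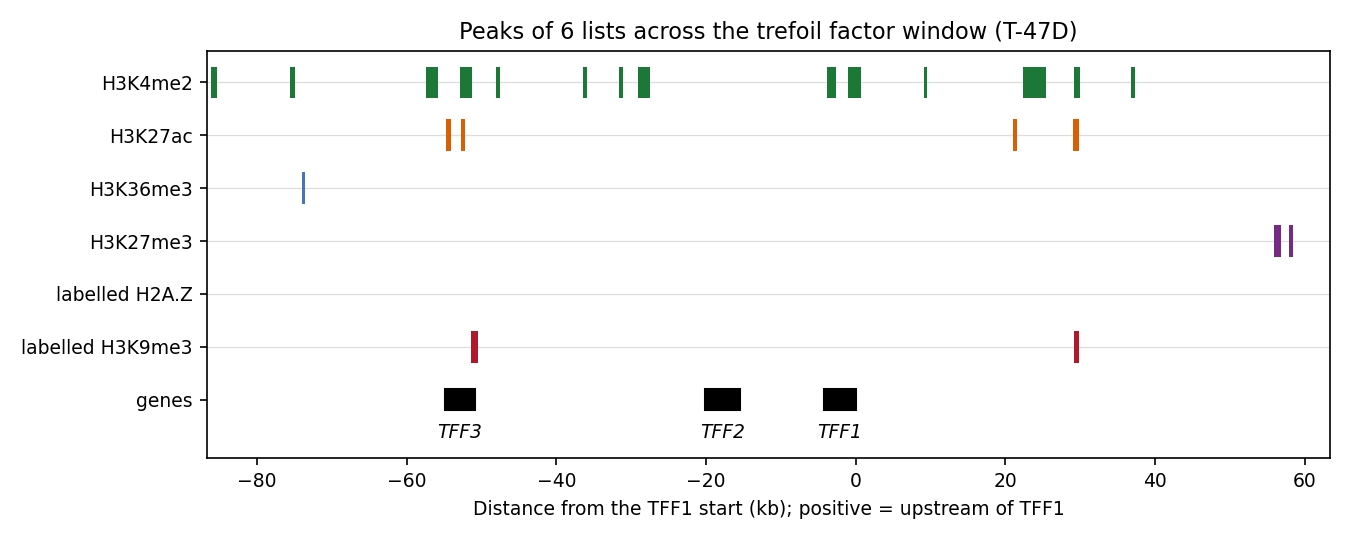
Peaks of the 6 lists (coloured bars, drawn to scale) and the 3 genes (black bars) across the 150 kb window, by distance in kb from the TFF1 start. H3K4me2 has 14 peaks, none of them in the stretch of 23.6 kb that holds TFF2, and the list labelled H2A.Z has no peak.

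At TFF1, the peak on the start was H3K4me2 at 43785591 to 43787394, 1804 bp wide. It covered 1750 bp of the 2 kb centred on the start (87.5%), and reached 750 bp upstream. Only 5.87% of all H3K4me2 peaks were at least this wide. A further H3K4me2 peak of 1266 bp lay inside the gene at 43782786 to 43784051, 2.59 kb from the start and 1539 bp from the first peak. Together both covered 2320 bp of the 4254 bp gene, or 54.5%. TFF1 thus had the largest share of its length under H3K4me2 of the 3 genes.

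No H3K27ac peak lay on TFF1 or within 5 kb upstream. The nearest was at 43807662 to 43808162, 21018 bp upstream of the TFF1 start. The nearest labelled H3K9me3 peak was 29.1 kb upstream, the nearest H3K27me3 peak 55.9 kb upstream and the nearest H3K36me3 peak 73.5 kb downstream. The start and body of TFF1 carried H3K4me2 peaks without a peak of H3K27ac or of the gene-body mark H3K36me3. On the rest of 21q, 227 of 1002 H3K4me2 peaks (22.7%) overlapped H3K27ac, so most had none. Among those of at least 1266 bp, 59.8% overlapped it. H3K36me3 peaks covered 4.02% of the other 150 kb windows of 21q, and 38.1% of these windows held one. Whether other genes lack both marks was not tested.

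At TFF3, partly overlapping marks ran from the start into the gene. A labelled H3K9me3 peak of 924 bp (43735221 to 43736144) lay across the start itself. The H3K4me2 peak, 1615 bp wide (43733817 to 43735431), ended 330 bp inside the gene and shared 211 bp with it. An H3K27ac peak of 501 bp (43733940 to 43734440) lay wholly within that H3K4me2 peak, 1.32 kb from the start. The H3K27ac and labelled H3K9me3 peaks did not touch each other, and were 780 bp apart.

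A further H3K27ac peak of 661 bp (43731926 to 43732586) lay inside TFF3 near the end that is farthest from its start, with no other mark on it. H3K27ac thus covered 1162 bp of the 3985 bp gene (29.2%), and H3K4me2 1615 bp (40.5%). TFF3 was the only 1 of the 3 genes with an H3K27ac peak. Beyond its far end, an H3K4me2 peak of 1549 bp (43729254 to 43730802) lay 1123 bp from that H3K27ac peak. Upstream, an H3K4me2 peak of 501 bp (43738619 to 43739119) lay 2.86 kb from the start, where H3K27ac had no peak within 5 kb. The gene as given here is 242 bp longer than the RefSeq entry in GRCh38.p14 (3743 bp), and distances to its start depend on the gene model. For TFF2 the difference was 104 bp, and the TFF1 lengths were the same in both.

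At TFF2, no list had a peak in the 4742 bp gene, in the 5 kb upstream or in the 11.2 kb between TFF2 and TFF1. The nearest H3K4me2 peak was the inner TFF1 peak, 11.6 kb upstream of the TFF2 start. On the other side the nearest was at 43757489 to 43759154, 12.1 kb from the start. The nearest labelled H3K9me3 peak was 35.1 kb away, the nearest H3K27ac peak 36.5 kb, the nearest H3K36me3 peak 58.1 kb and the nearest H3K27me3 peak 71.3 kb. TFF2 thus had no peak of the repressive mark H3K27me3, nor of H3K4me2 or H3K27ac.

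The bare stretch around TFF2 ran from 43759155 to 43782785, 23.6 kb without a peak of any list, and was the longest such stretch in the window. On 21q, 10.2% of the 3208 stretches between neighbouring peaks of any list were at least this long, and their median was 3.11 kb. The 18 stretches of the window had a median of 3.99 kb. Bare stretches of this length were therefore not rare on the arm.

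**Figure D2:**
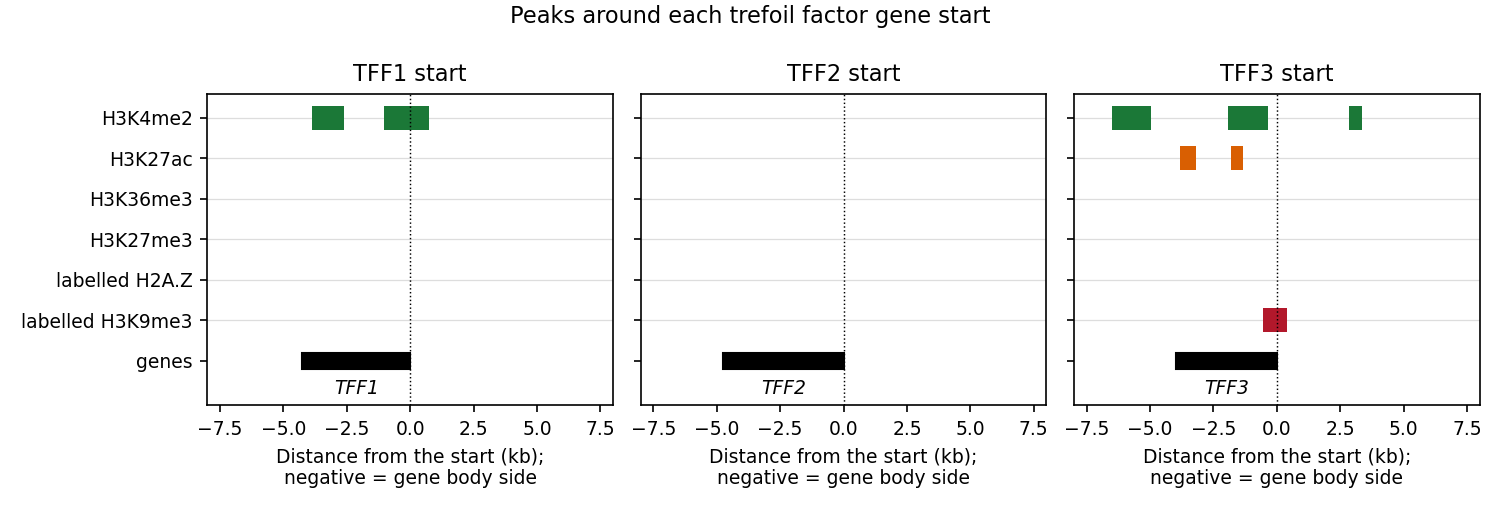
Peaks within 8 kb of the start of TFF1, TFF2 and TFF3, by distance in kb from each start, with the gene (black bar) on the negative side. TFF1 has H3K4me2 alone across its start, TFF3 has a labelled H3K9me3 peak across its start with H3K4me2 and H3K27ac inside the gene, and TFF2 has no peak.

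The space between TFF3 and TFF2 spans 30.7 kb and held 4 H3K4me2 peaks that covered 3169 bp (10.3%), including the peak just upstream of TFF3. Apart from the labelled H3K9me3 peak that reached in 383 bp from the TFF3 start, no other list had a peak there. The widest of these H3K4me2 peaks, at 43757489 to 43759154, measured 1666 bp, a width reached by 7.08% of the list. It was flanked on the TFF3 side by 2 peaks of 501 bp, at 43755070 to 43755570 and 43750176 to 43750676. The nearest H3K27ac to the 1666 bp peak was 23.0 kb away.

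Above TFF1 the remaining 63.4 kb of the window held 5 H3K4me2 peaks (5682 bp, 8.97% covered, counting the TFF1 start peak by its upstream part), 2 H3K27ac peaks, 1 labelled H3K9me3 peak and 2 H3K27me3 peaks. The widest H3K4me2 peak of the window was here, 3116 bp at 43808984 to 43812099, 22.3 kb upstream of the TFF1 start. Only 1.29% of the H3K4me2 list was as wide. It overlapped no H3K27ac, but the H3K27ac peak of 501 bp at 43807662 to 43808162 ended 821 bp before it. An H3K4me2 peak of 501 bp at 43795714 to 43796214 lay 9.07 kb upstream of TFF1, between TFF1 and that pair. The last H3K4me2 peak of the window, also 501 bp, was at 43823460 to 43823960, 36.8 kb upstream of TFF1.

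At 29.1 kb upstream of the TFF1 start, 3 lists met. H3K4me2 (43815779 to 43816592), H3K27ac (43815686 to 43816493) and the list labelled H3K9me3 (43815793 to 43816475) lay on each other, and the labelled H3K9me3 peak was wholly inside both others, sharing 683 bp with each. In the RefSeq gene order TMPRSS3, a transmembrane serine protease gene, is the next gene on that side. With no hg19 gene models in use, these peaks are not assigned to a gene. That order also places a lncRNA, LOC105372815, between TFF2 and TFF1, and ABCG1 as the next protein-coding gene on the TFF3 side.

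H3K27me3 and H3K36me3 had peaks only in the flanks of the window, outside the 3 trefoil factor genes and the spaces between them. Whether peaks in the flanks lie in neighbouring genes was not tested, since no hg19 gene models were used. The H3K27me3 peaks were at 43842537 to 43843499 and 43844596 to 43845096, 55.9 kb and 58.0 kb upstream of TFF1. A further H3K27me3 peak followed 2.52 kb beyond the window, at 43852518 to 43853018, and the nearest labelled H2A.Z peak 4.03 kb beyond it, at 43854033 to 43854533. Below the window the next H3K27me3 peak was 197 kb away. The H3K36me3 peak, 501 bp at 43712615 to 43713115, lay 22.6 kb from the TFF3 start on the low side, outside all 3 genes. The nearest H3K36me3 peaks outside the window were 273 kb below and 88.3 kb above it. The lower flank, 31.8 kb below TFF3, also held H3K4me2 peaks of 803 bp (43700452 to 43701254) and 662 bp (43711026 to 43711687), beside the 1549 bp peak next to TFF3.

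The rest of 21q was the comparison for how dense the marks were. It was divided into 223 further windows of 150 kb, laid outward from the trefoil factor window. H3K4me2 peaks covered 15800 bp of the trefoil factor window (10.5%), where the other windows had a median of 2554 bp and 2.42% of their length covered. Only 1 of the 223 (0.448%) had as much, the window from 30650001 to 30800000, with 24435 bp in 27 peaks. By number of peaks, 8 of them reached 14. An H3K4me2 peak as such was common, present in 86.1% of the other windows. The adjoining windows held 2 H3K4me2 peaks on the low side and 5 on the high side.

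H3K27ac was not comparably dense. It covered 2471 bp of the trefoil factor window (1.65%). The other windows had a median of 0 bp and 1.43% of their length covered, so the trefoil factor window was above both. Of the other windows, 60 (26.9%) had as much or more. An H3K27ac peak was present in 49.8% of them. The highest H3K27ac cover, 32661 bp, was in the window from 41600001 to 41750000, followed by those from 47600001 to 47750000 (21578 bp) and from 36050001 to 36200000 (16251 bp). The adjoining window on the high side had 10 H3K27ac peaks and that on the low side 2.

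In the 8 other windows with at least 14 H3K4me2 peaks, H3K27ac covered between 4151 and 14506 bp, with a median of 7331.5 bp, and all 8 had more than the trefoil factor window. By number they had 4 to 13 H3K27ac peaks, with a median of 7.5, and 2 of the 8 had no more than the 4 of the trefoil factor window. In the 19 other windows with at least 10 kb under H3K4me2, the range was 0 to 14506 bp with a median of 6717 bp, and 4 had less H3K27ac than the trefoil factor window. Both sets were chosen after the values were seen. The trefoil factor window was therefore in the low part of these sets for H3K27ac, and other windows lay lower in the second.

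**Figure D3:**
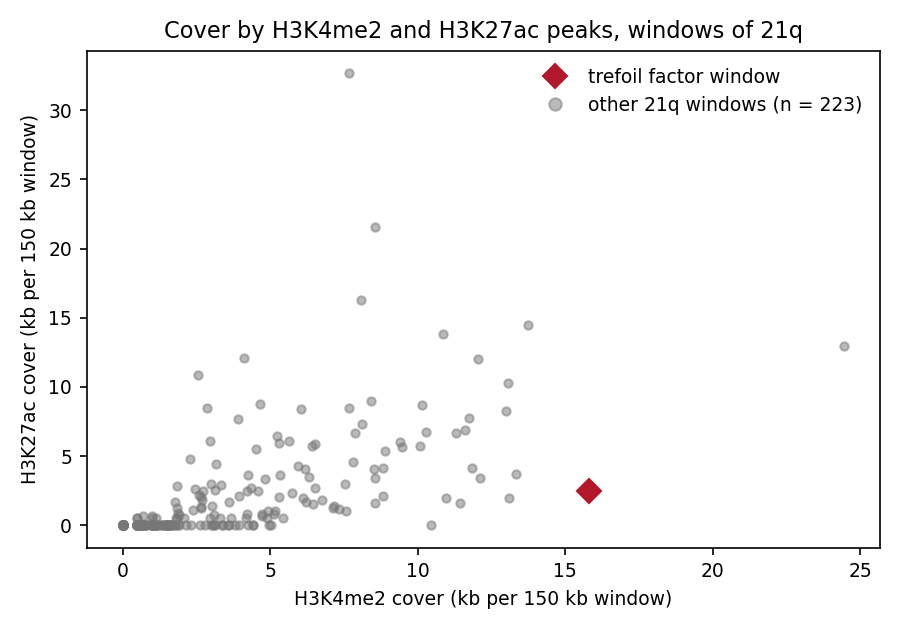
Cover by H3K4me2 (x axis) and H3K27ac (y axis) peaks, in kb per 150 kb window, for the trefoil factor window (diamond) and the 223 other windows of 21q (points). The trefoil factor window has 15800 bp of H3K4me2, exceeded by 1 window, and 2471 bp of H3K27ac, reached by 60 windows.

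The other lists had few peaks in the window, but mostly no fewer than the median of the other windows. The counts were 1 for H3K36me3 and 2 for H3K27me3 (both medians 0), 2 for labelled H3K9me3 (median 1) and 0 for labelled H2A.Z (median 1). The 2 labelled H3K9me3 peaks covered 1607 bp, and 10.3% of the other windows had as much or more. A labelled H3K9me3 peak was present in 56.5% of windows. A labelled H2A.Z peak was also present in 56.5% of windows and in the trefoil factor window in none. An H3K36me3 peak was present in 38.1% and an H3K27me3 peak in 43.9%. By cover, 38.1% of the other windows had as much H3K36me3 or more, and 32.7% as much H3K27me3 or more. A window of this size without a labelled H2A.Z peak was thus not unusual on 21q.

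Overlap of marks was compared next, since the H3K4me2 peaks of the window were mostly alone. Of the 14 H3K4me2 peaks, 2 overlapped H3K27ac (14.3%, 95% Wilson interval 4.01 to 39.9), namely the peak in TFF3 and the peak 29.1 kb upstream of TFF1. On the rest of 21q, 227 of 1002 did (22.7%), which lies within that interval. Of the 4 H3K27ac peaks, 2 overlapped H3K4me2 (50%), against 51% on the rest of 21q. The same 2 H3K4me2 peaks overlapped the list labelled H3K9me3, against 9.88% on the rest of the arm. Both labelled H3K9me3 peaks overlapped H3K4me2 and 1 of the 2 overlapped H3K27ac, where the rest of 21q gave 44.9% and 34.2%. When 50% of the shorter peak had to be shared, 1 of the 2 (50%) overlapped H3K4me2, since the pair at TFF3 shared only 211 bp. These shares rest on few peaks, and the intervals cover counting error only, with peaks taken as independent.

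Peaks that overlapped were then joined across lists. Of the 19 joined regions in the window, 12 (63.2%, Wilson interval 41.0 to 80.9) were H3K4me2 alone, where 691 of 3190 on the rest of 21q (21.7%) were. Those 691 regions compare with 1002 H3K4me2 peaks there, so most H3K4me2 peaks on the rest of 21q were alone too. The joined regions that held H3K4me2, H3K27ac and labelled H3K9me3 peaks numbered 2 of 19 (10.5%, 2.94 to 31.4), against 56 of 3190 (1.76%). The 2 in the window lay at TFF3 and at the site 29.1 kb upstream of TFF1, which is not assigned to a gene. At TFF3 the H3K27ac and labelled H3K9me3 peaks lay 780 bp apart and were joined only through the H3K4me2 peak. All 3 lists lay on each other only upstream of TFF1. How many of the 56 were joined in such a chain was not tested. These shares also reflect the mix of lists, since H3K4me2 gave 14 of the 23 peaks in the window and 1002 of 3799 on the rest of 21q.

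Width bears on the overlap with H3K27ac. On the rest of 21q the share of H3K4me2 peaks with H3K27ac was 11.1% at widths up to 501 bp, 23.0% from 502 to 999 bp, 35.5% from 1000 to 1265 bp and 59.8% (70 of 117, Wilson interval 50.8 to 68.3) at 1266 bp or more. The trefoil factor window had 6 H3K4me2 peaks in the widest class, where 1266 bp is the narrower of the TFF1 peaks. The peak in TFF3 was the 1 of the 6 that overlapped H3K27ac (16.7%, 3.01 to 56.4). The other 5 were both TFF1 peaks, the 1666 bp peak between TFF3 and TFF2, the 1549 bp peak beyond TFF3 and the 3116 bp peak upstream of TFF1. The class was set after the values were seen, from a TFF1 peak without H3K27ac. The 59.8% lay outside the window interval, although the intervals of both shares overlap. At a minimum width of 1 kb the share on the rest of 21q was 50.3%, inside the window interval of 3.01 to 56.4. At 1.5 kb it was 62.9%, just outside 3.62 to 62.4. Overlap of intervals from so few peaks of 1 library cannot decide whether the shares differ. When a gap of up to 1 kb counted as meeting, 2 of the 6 met H3K27ac (33.3%, 9.68 to 70.0), against 62.4% on the rest of 21q.

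**Figure D4:**
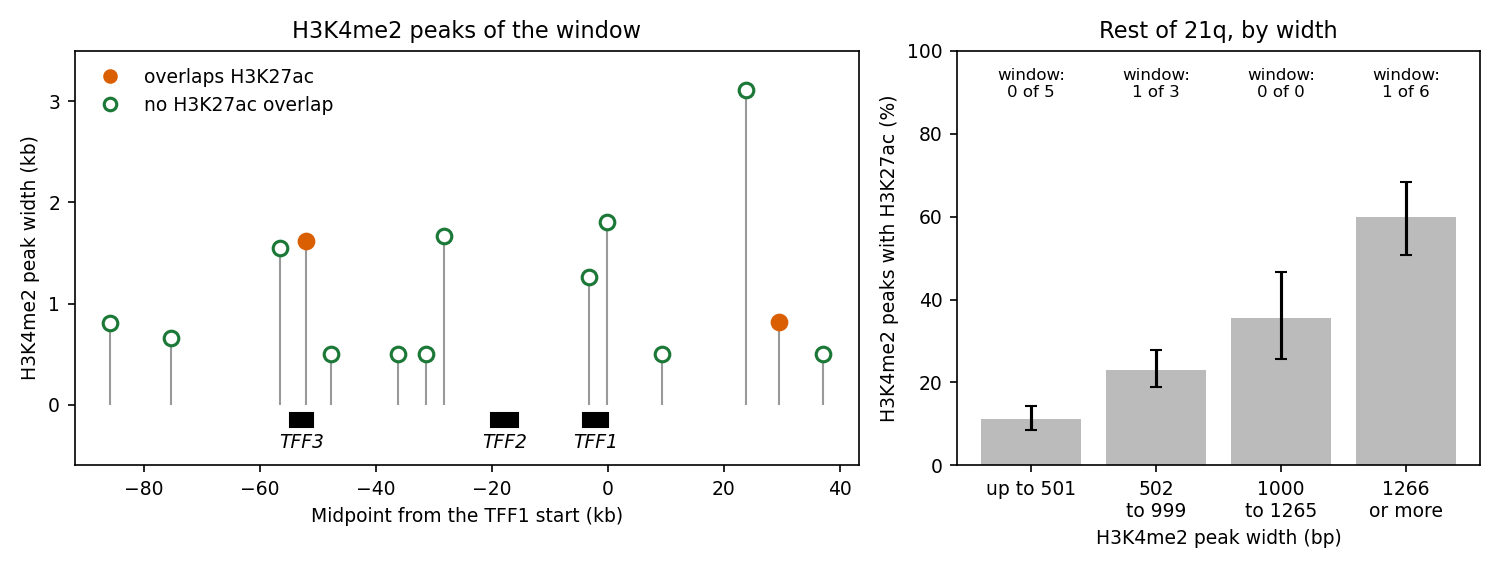
Left, width in kb of each of the 14 H3K4me2 peaks by midpoint distance from the TFF1 start, filled where it overlaps H3K27ac. Right, percent of H3K4me2 peaks on the rest of 21q that overlap H3K27ac, by width, with 95% Wilson intervals. Above each bar is the count in the trefoil factor window. In the widest class it is 1 of 6 (Wilson interval 3.01 to 56.4%), where the bar stands at 59.8%. The lower edge of that class, 1266 bp, was set after the values were seen, from a TFF1 peak without H3K27ac.

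The widths themselves had a median of 808.5 bp for the 14 H3K4me2 peaks, against 630 bp on the rest of 21q. Of the 14, 5 had the commonest width of 501 bp, where 46.7% did on the rest of the arm. The 4 H3K27ac peaks were narrow, from 501 to 808 bp with a median of 581 bp, against 661.5 bp on the rest of 21q.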

How the data were processed

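Per the labels, nuclei were sonicated, complexes were isolated with antibody, and sequencing was done on an Illumina HiSeq 2000. The submitters' processing notes name Bowtie2 2.1.0, HOMER 4.2 and the builds hg19 and GRCh37, without roles. The sources used here do not state the peak calling settings or the use of the input. The authors deposited 1 peak list per library, with 4 columns (chromosome, start, end, name). Starts were read as counted from 0 and are printed 1-based.

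Gene and window positions were those of the rule that defined the region. The members and lists were chosen with earlier results of these data known. Overlap meant at least 1 bp. 21q ran from the first peak after the longest span between peaks of chromosome 21 (3.18 Mb) to the last peak, 14348599 to 48088620. The rule for named regions took every peak touching the window and up to 3 windows of 21q with more H3K4me2 or H3K27ac. The adjoining windows and the nearest peaks outside the window were added after their values were seen. Computation used Python 3.11.15, numpy 2.4.6, scipy 1.17.1 and matplotlib 3.10.9. The overlap functions were tested on simulated data, and all 6 returned the known answers. The RefSeq table (GRCh38.p14) served for names, lengths and gene order. Promoter motifs, marks at other gene starts and the check of luminal markers were planned but not run, since no sequence of these genes and no hg19 annotation were used here.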

Additional observations from a re-analysis of the deposited data

How the results depend on the processing

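Of 62 values under alternative settings, 49 stayed within 1.5 times the count or within the Wilson interval of the share, and 13 moved. Shares of 2 or 4 peaks had wide intervals (34.2 to 100% and 15 to 85%), so the tally says little about them. With only peaks above their list's median width, the window held 9 H3K4me2, 2 H3K27ac, 0 H3K36me3 and 1 H3K27me3 peaks. Shortened by 25 kb at each end it held 0 H3K36me3 and 0 H3K27me3 peaks, and lengthened by 25 kb it held 1 labelled H2A.Z peak. The genes with an H3K4me2 peak in the 5 kb upstream were 2 (TFF1 and TFF3), and 1 by peak midpoint, within 2 kb or among wider peaks. By midpoint, 0 genes had a labelled H3K9me3 peak upstream, since the TFF3 peak lies across the start. By number of peaks in place of cover, 3.59% of the 21q windows reached the trefoil factor window for H3K4me2 and 20.2% for H3K27ac. The H3K4me2 share was between 0.448 and 0.9% under the other 3 settings. The minimum width and the gap for wide H3K4me2 peaks were varied after seeing the data, and the share with H3K27ac ran from 16.7 to 33.3%. The share of labelled H3K9me3 peaks on H3K4me2 was 50% when 50% of the shorter peak had to be shared, against 100%. No paired analysis was possible because each mark had 1 library. Depth is unknown, so an absent peak is not an absent mark.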
